A study of Mus musculus with 22 samples.

Results

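The Myc and Max network genes are a small family of basic helix-loop-helix leucine zipper transcription factors, followed here in neurons and glia of the mouse hippocampus contralateral to an injection of kainate. The 8 members were taken by gene symbol, and all 8 were among the 40714 genes tested of the 53379 genes in the count table. They are the Myc family activators Myc, Mycn and Mycl, their obligate partner Max, and the antagonists Mxd1, Mxd4, Mxi1 and Mnt. The family was chosen because the response of Myc to kainate in glia was already known from these data. The values of Myc in that comparison are therefore given as a description, and nothing is read from them.

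In the study, adult male C57/BL6N mice received kainate, a glutamate receptor agonist that elicits status epilepticus, or NaCl (sham) above the right hippocampus, and hippocampi were taken 24 h later. The sample names and the design of the study give the left, contralateral side, which is followed here, whereas the extraction protocol in the labels names the right side. The hippocampi of 8 mice per treatment were pooled into 3 samples, so a library stands for several animals. Nuclei of each pool were sorted by flow cytometry for NeuN, a neuronal nuclear protein, into NeuN+ nuclei (called neurons) and NeuN- nuclei (called glia), and their polyadenylated RNA was sequenced. There were 3 kainate and 3 sham libraries of neurons and 3 kainate and 2 sham libraries of glia, the sham glia library with replicate number 2 being absent. The glia fraction is defined only by the lack of NeuN, so it mixes astrocytes, oligodendrocytes, their precursors, microglia and vascular cells. In such bulk samples fewer nuclei of a type and less RNA per nucleus cannot be told apart.

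Myc proteins bind DNA only as dimers with Max, at the E-box motif CACGTG, and raise transcription of genes for ribosome biogenesis, nucleotide and polyamine synthesis and glycolysis. The Mxd proteins, Mxi1 and Mnt compete for Max and for the same motif, and recruit Sin3 and histone deacetylases to repress. Myc is an immediate early gene whose mRNA and protein are short-lived. Mycn is best known from neural progenitors, and members of the Mxd group rise as cells differentiate.

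Depth ranged from 12058875 to 45428465 counts per library, and the members had from 142 to 3658 counts in a library. The marker genes fitted the sort: 5 neuron markers summed to 2759 to 6552 normalised CPM (counts relative to the effective depth of the library) in neurons and 449 to 724 in glia, and 5 oligodendrocyte markers to 185 to 439 CPM in neurons and 4631 to 36814 in glia. Within glia the libraries with replicate number 1 stood apart from those with number 3. The astrocyte marker sum was 2269 CPM in kainate and 3767 in sham glia of number 1, but 347 and 959 in those of number 3. The kainate glia library of number 2 and the sham glia library of number 1 were made from 0.05 ng of RNA with 15 cycles of PCR, and all others from 1 ng with 10 cycles.

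The E-box is the site for which all 8 proteins compete, so the promoters of the members were searched for it. RefSeq promoter windows (GRCm38.p6, 250 bases before to 50 after the start) matched 7 of the 8 members, with 9 windows in all. Myc was not matched. The motif CACGTG, which reads the same on both strands, was found in 3 of these 9 windows and in 2349 of all 32851 windows (7.15%). It lay in Mnt, Mxd4 and Max, and those stretches are shown 5′ to 3′ on the strand of the gene, with the motif in capitals.
Mnt, chr11:74830759-74830848, + strand: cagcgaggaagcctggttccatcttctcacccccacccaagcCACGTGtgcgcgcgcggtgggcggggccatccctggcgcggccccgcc
Mxd4, chr5:34187882-34187960, - strand: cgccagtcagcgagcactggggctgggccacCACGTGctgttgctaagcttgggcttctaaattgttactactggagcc
Max, chr12:76962237-76962293, - strand: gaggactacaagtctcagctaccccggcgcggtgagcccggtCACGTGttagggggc
The first base of the motif was 123 bases before the start in Mnt, 219 before it in Mxd4 and 3 before it in Max. A match of letters is a description and was not tested as a binding site.

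**Figure D1:**
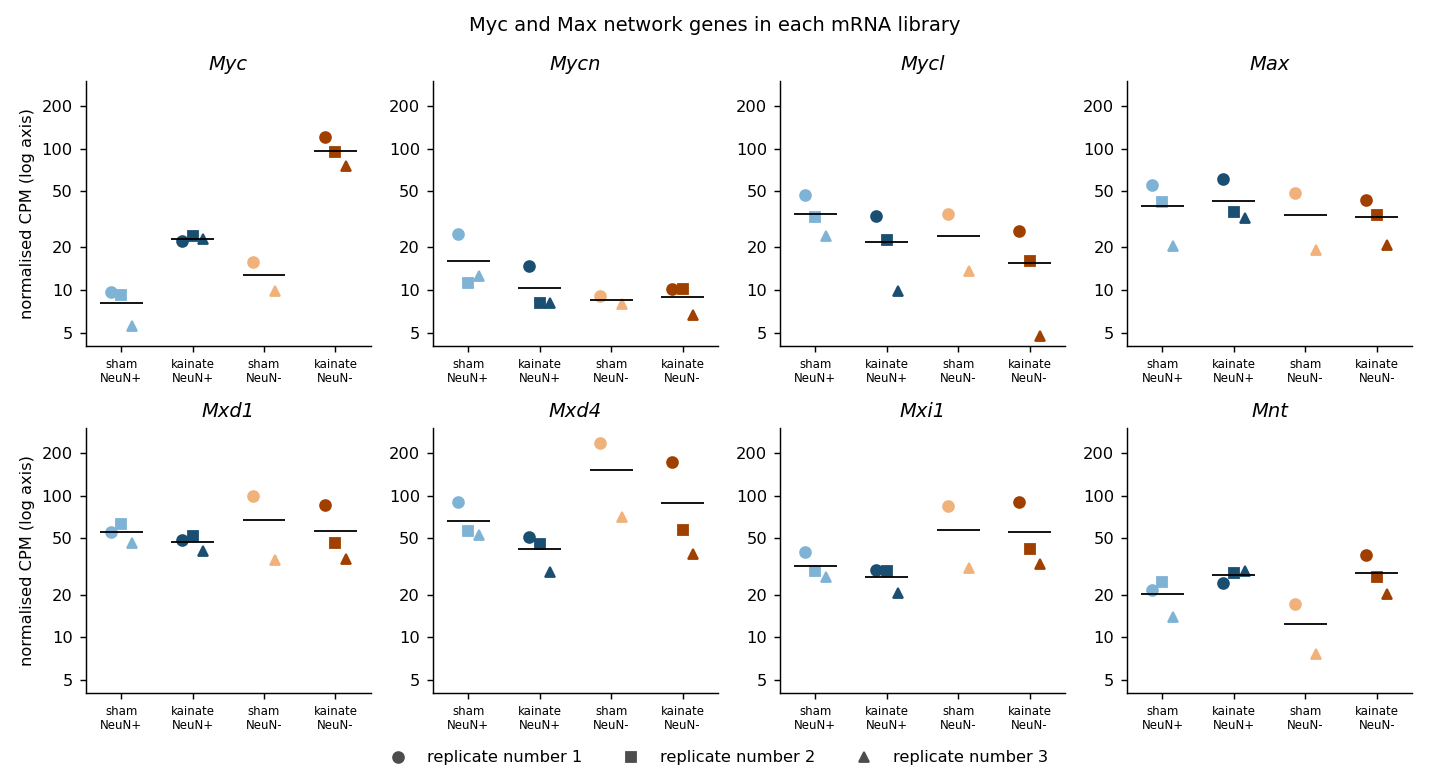
Normalised CPM (log axis) of the 8 members in each of the 11 libraries, with 1 panel per gene, marker shapes for the replicate number and a line at the group mean. Myc in the 3 kainate glia libraries sits between 75.2 and 120.4 CPM, above every other library, while the glia libraries of Mxd4, Mxd1 and Mxi1 spread widely within each group.

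Per length of exon, no member was the highest in every sham neuron library, while Mxd4 was the highest in both sham glia libraries. In sham neurons Max was the highest, with 10.9 ± 4.88 CPM per kb (SD, n = 3), and Myc the lowest of the 8 with 2.99 ± 0.812. In sham glia Mxd4 was the highest with 17.9 ± 13.6 CPM per kb (n = 2), followed by Mxd1 with 9.57 ± 6.46 and Max with 9.39 ± 5.78, while Mnt with 2.66 ± 1.44 and Mycn with 2.58 ± 0.245 were the lowest. After kainate Myc was 2nd of the 8 in neurons, with 8.45 ± 0.336 CPM per kb (n = 3), and 1st in glia, with 35.6 ± 8.35. Max stayed at 11.9 ± 4.33 CPM per kb in neurons and 9.07 ± 3.16 in glia. Most neighbours in these orders lay within each other's spread. The lowest kainate glia library of Myc, at 27.7 CPM per kb, was above the highest of any other member there, Mxd4 at 20.3. This and the 1st place of Myc in kainate glia are a description, since that level led to the choice of the family.

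Myc itself, on chromosome 15 (ENSMUSG00000022346, mm10, 61985391 to 61990374, + strand), was higher after kainate in neurons by values that did not pass the test in the fit without pairing. Its levels were 22.1, 23.9 and 22.8 CPM in the kainate neurons of numbers 1, 2 and 3, and 9.60, 9.16 and 5.58 CPM in the sham neurons. The groups did not overlap, which was true in this direction of 4.26% of all genes tested. The log2 fold change was 1.502 (SE 0.346), with an unadjusted p of 7.08e-04 and FDR = 0.294 in edgeR's quasi-likelihood test, against the threshold of 0.25 that the study used. With the replicate number as a block, which compares kainate and sham libraries of the same number, the log2 fold change was 1.54 (SE 0.214, FDR = 6.57e-07). Myc was thus called higher in that fit, whose SEs rest largely on an estimate shared over genes. The summed microglia markers were also higher in every kainate neuron library (31.9, 39.5 and 49.1 CPM) than in every sham neuron library (28.8, 25.1 and 29.0 CPM). In glia they were 463 to 2629 CPM. The log2 fold change in neurons was above 0 for 3 of 5 of these markers, with a median of 0.06. Csf1r had a mean of 23.6 CPM in kainate and 10.7 in sham neurons, while P2ry12 (2.023 against 3.235) and Tmem119 (3.245 against 3.750) were lower. The summed astrocyte markers were 212, 275 and 284 CPM in kainate and 203, 152 and 213 CPM in sham neurons, with 3 of 5 above 0 in log2 fold change. Slc1a2 had a mean of 200.9 CPM in kainate and 124.8 in sham neurons, while Slc1a3 (26.6 against 39.9) and Gja1 (8.84 against 14.5) were lower. None of these markers was called in the fit without the block, the only fit looked at for markers. Their part in the value of Myc in neurons was not tested. The difference within numbers was 1.20, 1.38 and 2.02 on the log2 CPM scale. Leaving out single libraries gave FDRs on both sides of the threshold: Myc was called without sham glia number 1 (FDR = 0.159), sham glia number 3 (0.153) or kainate glia number 3 (0.129), which share only the estimate of the spread with this comparison, and not called without any of the other libraries.

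None of the 8 members was called in neurons in the fit without the block, where 0.165% of all genes were. With the block 3 of 8 were called, against 5.09% of all genes. Besides Myc these were Mycl and Mxd4, and both fell. Mycl, a Myc family member with a narrow range of expression (ENSMUSG00000028654, chromosome 4, 122995652 to 123002485, + strand), had 33.2, 22.6 and 9.82 CPM in kainate neurons and 46.9, 32.6 and 24.2 CPM in sham neurons. Kainate was lower within each number although the groups overlapped. Its log2 fold change was -0.66 (SE 0.586, FDR = 1) without the block and -0.77 (SE 0.229, FDR = 0.0515) with it.

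Mxd4, an antagonist of Myc typical of differentiated cells (ENSMUSG00000037235, chromosome 5, 34173883 to 34187720, - strand), had 51.1, 45.5 and 28.8 CPM in kainate neurons and 90.4, 55.9 and 52.6 CPM in sham neurons. Every kainate library was below every sham library, which held in this direction for 3.60% of all genes. The log2 fold change was -0.67 (SE 0.558, FDR = 1) without the block and -0.66 (SE 0.188, FDR = 0.0352) with it. Without the block, leaving out single neuron libraries gave -0.31 (without kainate number 3) to -1.09 (without kainate number 1) for Mycl and -0.38 (without sham number 1) to -0.83 (without kainate number 1) for Mxd4. Of the exon bases of Mxd4, 6.06% are shared with an antisense gene, Gm42846, and the libraries do not mark strand.

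The remaining members were not called in neurons in either fit. Mycn (ENSMUSG00000037169, chromosome 12, 12936093 to 12941914, - strand) had a log2 fold change of -0.65 (SE 0.410), with 14.7, 8.03 and 8.15 CPM in kainate and 24.7, 11.2 and 12.5 CPM in sham neurons. The kainate library of each number was the lower, with differences of -0.744, -0.476 and -0.609 on the log2 CPM scale, and Mycn had FDR = 1 without the block and 0.316 with it. Max, the shared partner of the family (ENSMUSG00000059436, chromosome 12, 76937269 to 76962201, - strand), ranged from 32.2 to 60.8 CPM in kainate and from 20.3 to 55.1 CPM in sham neurons. Mxd1, the first known antagonist of Myc (ENSMUSG00000001156, chromosome 6, 86647042 to 86669161, - strand), ranged from 40.3 to 51.7 CPM and from 46.1 to 63.1 CPM. Mnt, Max, Mxd1 and Mxi1 had log2 fold changes of 0.44, 0.13, -0.23 and -0.27 with SEs from 0.385 to 0.466 and FDR = 1 each.

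In glia Myc had 120.4, 94.8 and 75.2 CPM in the kainate libraries of numbers 1, 2 and 3, and 15.7 and 9.82 CPM in the sham libraries of numbers 1 and 3. The difference was 2.93 on the log2 CPM scale within number 1 and 2.93 within number 3. The fitted log2 fold change was 2.92 (SE 0.427), given as a description since this value led to the choice of the family. Without both low-input libraries it was 3.34, a fit in which the lone sham library is assumed to vary like the other groups.

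Of the other members in glia, Mnt had the largest fitted change. Mnt is a broadly expressed repressor that competes with Myc for Max (ENSMUSG00000000282, chromosome 11, 74830920 to 74845725, + strand). Its levels were 38.2, 26.4 and 20.2 CPM in kainate and 17.0 and 7.59 CPM in sham glia. All kainate libraries lay above both sham libraries, as did those of 4.70% of all genes. The log2 fold change was 1.20 (SE 0.449, FDR = 1, unadjusted p 0.0183) without the block and 1.29 (SE 0.280, FDR = 0.00246) with it, and within numbers 1 and 3 the differences were 1.16 and 1.40. Without the block the value was 0.72 without sham glia number 3, 0.80 without kainate glia number 1, 1.92 without sham glia number 1 and 1.97 without both low-input libraries, and it was not called in any of these. Mnt thus rose in glia only in the fit with the block, in which the kainate glia library of number 2 has no sham partner and adds nothing to the difference. All glia values with the block rest on numbers 1 and 3. In number 1 the kainate library was made from 1 ng of RNA and the sham library from 0.05 ng, so treatment and RNA input differ together there.

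In the fit without the block 0 of the 7 members other than Myc were called in glia, where 0.101% of all genes were called. With the block 3 of these 7 were called, against 5.79% of all genes: Mnt higher, Mycl and Mxd4 lower. Myc was called in both fits, from which nothing is read, and not called without sham glia number 1, kainate glia number 2 or both low-input libraries. Mycl had 26.1, 16.02 and 4.75 CPM in kainate and 34.4 and 13.6 CPM in sham glia. Its fold change on the log2 scale was -0.63 (SE 0.647, FDR = 1) without the block and -0.94 (SE 0.289, FDR = 0.0643) with it. Mxd4 had 172.3, 57.3 and 38.4 CPM in kainate and 233.8 and 70.8 CPM in sham glia. Its fold change on the log2 scale was -0.77 (SE 0.613, FDR = 1) without and -0.66 (SE 0.228, FDR = 0.137) with the block. For both genes the libraries of number 1 were the highest of their group, and the groups overlapped. The direction of both turned in the fit without the block when sham glia number 1 was left out, to log2 fold changes of 0.22 for Mycl and 0.36 for Mxd4, and without both low-input libraries, to 0.20 and 0.60. Without kainate glia number 1 the values were -1.31 and -1.80, and without sham glia number 3 they were -1.15 and -1.39. Mycn, Max, Mxi1 and Mxd1 had log2 fold changes of 0.07, -0.05, -0.06 and -0.27 with SEs from 0.460 to 0.521, and FDR = 1 each.

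Cell type markers of the glia libraries are given beside these values. Only 2 of 5 astrocyte markers, 0 of 5 oligodendrocyte markers, 0 of 3 precursor markers and 0 of 5 microglia markers had a log2 fold change above 0 in glia. None was called in the fit without the block, the only fit looked at for markers. The summed microglia markers ranged from 463 to 1379 CPM in kainate and 503 to 2629 CPM in sham glia, and the precursor markers from 174 to 900 and 592 to 1983. The summed markers of infiltrating leukocytes ranged from 5.67 to 14.2 CPM in kainate and 7.92 to 17.5 in sham glia, with S100a8 too low to be tested. Their part in the values of Myc, Mnt, Mycl and Mxd4 was not tested.

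**Figure D2:**
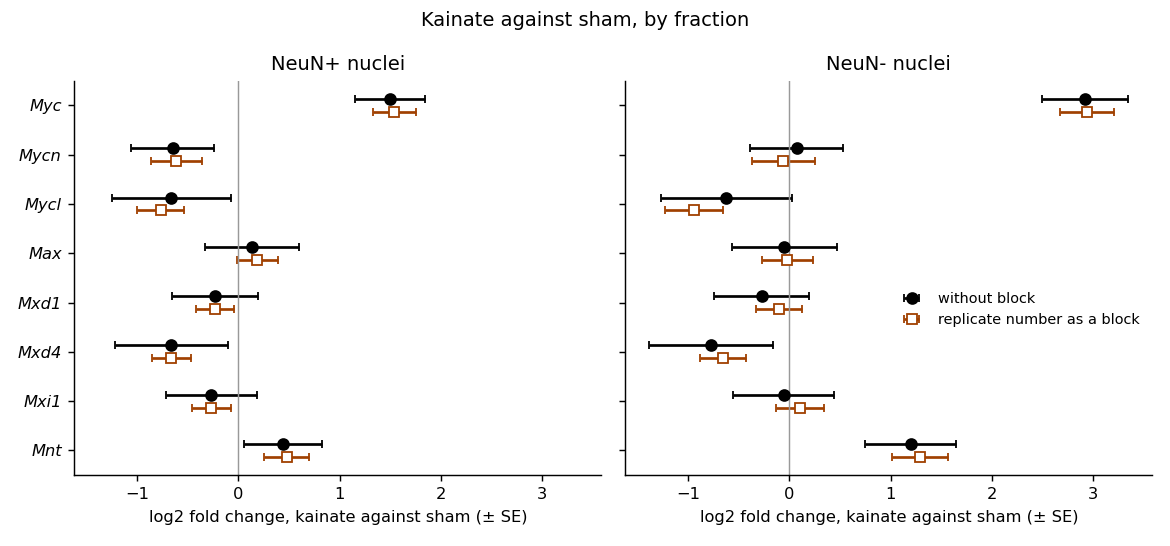
Log2 fold change of kainate against sham (± SE) for each member in neurons (NeuN+, left) and glia (NeuN-, right), from the fit without pairing (filled circles) and with the replicate number as a block (open squares). Myc lies at 1.502 and 2.92, Mnt at 0.44 and 1.20, and Mycl and Mxd4 lie below 0 in both fractions, with shorter error bars in the fit with the block.

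The kainate effect was also compared between the fractions. The log2 fold change of Myc was lower in neurons than in glia by a log2 difference of -1.42 (SE 0.516) without and -1.40 (SE 0.330) with the block, a description since it contains the glia value that chose the family. Of the 7 other members 0 were called in this contrast, without the block (0.00246% of all genes called) or with it (1.94%). For Mnt the difference was -0.76 (SE 0.582, FDR = 1) and with the block -0.81 (SE 0.357, FDR = 0.612). For Mycl and Mxd4 it was -0.04 (SE 0.878) and 0.11 (SE 0.833), FDR = 1 each. A different kainate effect in neurons and glia was therefore not shown for these members.

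The members were also compared between neurons and glia. The median log2 difference over all genes was -0.373 in sham and -0.471 after kainate, against which the values of the members stand. In sham hippocampus 0 of 8 members were called between the fractions, where 16.7% of all genes were. Mycn was higher in every sham neuron library (11.2 to 24.7 CPM) than in either sham glia library (7.93 and 9.07 CPM), as were 14.4% of all genes, with a log2 difference of 0.92 (SE 0.471, FDR = 0.349). Myc was lower in every sham neuron library (5.58 to 9.60 CPM) than in either sham glia library (9.82 and 15.7 CPM), as were 12.5% of all genes, with a log2 difference of -0.66 (SE 0.377, FDR = 0.437). With the pool as a block, which compares both fractions of the same hippocampi, 5 of 8 members were called, against 34.0% of all genes. Myc (-0.76, FDR = 0.0850), Mxd4 (-0.90, FDR = 0.136) and Mxi1 (-0.64, FDR = 0.231) were then lower in neurons, and Mycn (1.05, FDR = 0.0741) and Mycl (0.64, FDR = 0.169) higher. The sham neuron library of number 2 has no glia partner and adds nothing to that fit.

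After kainate Mxi1 was called between the fractions beside Myc, 2 of 8 members against 20.7% of all genes, and both were lower in neurons. The difference of Myc, -2.08 (SE 0.350) on the log2 scale, uses the kainate glia libraries that chose the family and is a description. Mxi1, an Mxd relative that represses Myc targets (ENSMUSG00000025025, chromosome 19, 53310518 to 53375810, + strand), had 29.7, 29.2 and 20.4 CPM in kainate neurons and 90.3, 42.2 and 32.9 CPM in kainate glia. The groups did not overlap, as for 16.4% of all genes in this direction, and the log2 difference was -1.06 (SE 0.452, FDR = 0.195). The call was lost without any of the kainate neuron libraries (FDR = 0.328, 0.356 and 0.375 without numbers 1, 2 and 3) and without kainate glia number 1, where the difference was -0.48 (FDR = 0.507). With the pool as a block 5 of 8 members were called, against 49.3% of all genes: Mxi1 (-0.94, FDR = 0.0285), Mxd4 (-0.83, FDR = 0.0780) and Myc lower in neurons, Mycl (0.62, FDR = 0.0810) and Max (0.40, FDR = 0.190) higher. Of the exon bases of Mxi1, 2.84% are shared with Gm10197 on the opposite strand.

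The levels of Myc can also be set against those of its relatives, in measures formed after the values of the members were seen. Myc made up 15.6, 22.7 and 17.3% of the summed CPM per kb of Myc, Mycn and Mycl in sham neurons of numbers 1, 2 and 3, and 39.1, 52.3 and 63.1% in kainate neurons. In glia it made up 33.9 and 38.5% in sham and 82.3, 83.2 and 89.7% in kainate libraries. The ratio of Myc to Mnt per length was 0.754, 0.635 and 0.680 in sham neurons and 1.56, 1.43 and 1.32 in kainate neurons. It was 1.57 and 2.20 in sham glia and 5.37, 6.11 and 6.35 in kainate glia. The glia values contain the level that chose the family, and no result is read from either measure.

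The sums of the activators and of the antagonists are given side by side. Mxd1, Mxd4, Mxi1 and Mnt together had 22.4, 23.1 and 18.4 CPM per kb in kainate neurons and 29.0, 25.1 and 19.6 in sham neurons. Myc, Mycn and Mycl together had 20.8, 16.8 and 13.3 CPM per kb in kainate neurons and 22.6, 14.8 and 11.8 in sham neurons. In neurons the antagonist sum was thus lower with kainate within each number, and the activator sum was lower in number 1 and higher in numbers 2 and 3. In glia the antagonists had 54.0, 25.2 and 18.8 CPM per kb in the kainate libraries of numbers 1, 2 and 3, and 57.7 and 19.5 in the sham libraries of numbers 1 and 3. The activators had 53.8, 41.9 and 30.9 CPM per kb in kainate and 17.1 and 9.40 in sham glia, sums that contain the Myc level that chose the family.

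**Figure D3:**
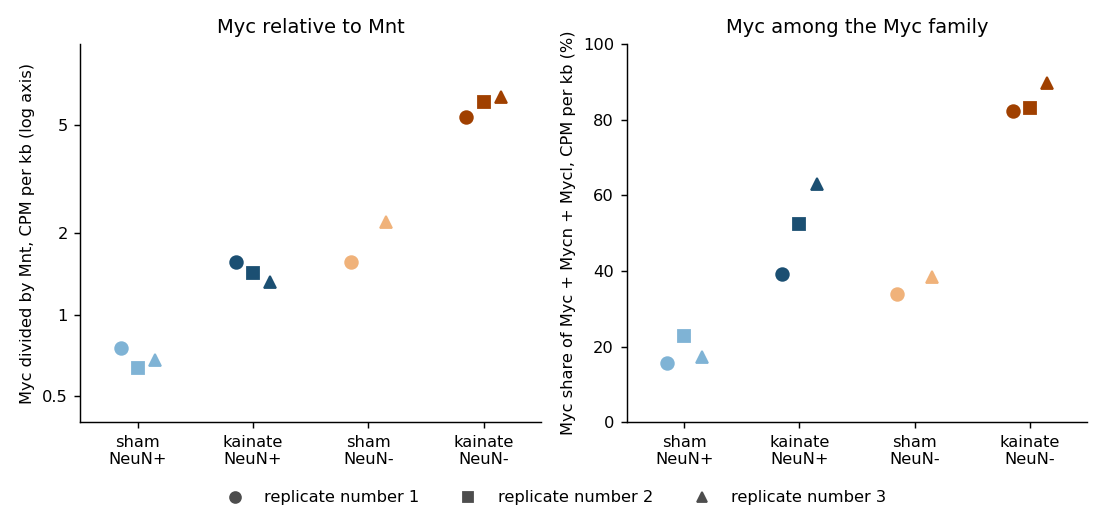
Myc divided by Mnt in CPM per kb (left, log axis) and the percentage of Myc in the summed CPM per kb of Myc, Mycn and Mycl (right) in each of the 11 libraries, with marker shapes for the replicate number. In each fraction the kainate libraries lie above the sham libraries, and kainate glia are highest with ratios from 5.37 to 6.35.

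The other Max and Mlx network factors showed no call after kainate. Mga, a repressor that binds Max, Mxd3, the Mlx protein, which takes the place of Max, and its partners Mlxip and Mlxipl had log2 fold changes from -0.37 to 0.29 in neurons and from -0.44 to -0.02 in glia, FDR = 1 each. Between the fractions Mlxipl, the carbohydrate response factor ChREBP, was much lower in neurons, with 2.42 ± 1.74 CPM (n = 3) in sham neurons and 74.8 ± 43.0 (n = 2) in sham glia, a log2 difference of -4.91 (SE 0.819, FDR = 0.00224). After kainate it was -4.38 (SE 0.776, FDR = 0.00250). Mlx was higher in neurons than in glia after kainate, with 65.0 ± 25.0 against 25.6 ± 11.4 CPM (n = 3 each) and a log2 difference of 1.35 (SE 0.507, FDR = 0.130). That call was lost without kainate neurons number 1 (FDR = 0.440), kainate glia number 2 (0.337) or kainate glia number 3 (0.339). In sham the difference of Mlx was 1.04 (FDR = 0.407), and 1.36 (FDR = 0.00351) with the pool as a block. The block also called Mga (0.43, FDR = 0.192) and Mxd3 (0.86, FDR = 0.200) higher in neurons after kainate.

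Genes known to be activated by Myc were described through a list of 45, drawn up with earlier results of these data known. In glia 2 of 45 were called higher, against 0.0933% of all genes, and 0 lower, against 0.00737%. Odc1, the rate-limiting enzyme of polyamine synthesis and a classical Myc target, had 47.2, 37.2 and 35.8 CPM in kainate and 11.8 and 8.68 CPM in sham glia, with a log2 fold change of 1.97 (SE 0.365, FDR = 0.142). Hmga1, an architectural chromatin protein, had 54.2, 56.9 and 36.7 CPM in kainate and 9.84 and 6.10 CPM in sham glia, with a log2 fold change of 2.63 (SE 0.422, FDR = 0.0763). Both genes rose, and in both the groups did not overlap, as for 4.70% of all genes in this direction. The fold change was above 0 for 41 of 45 list genes in glia, against 51.9% of all genes, with a median of 0.50 against 0.02 over all genes tested. The median was 0.08 against 0.07 without kainate glia number 1, 0.07 against 0.76 without sham glia number 3, and 1.16 against -0.105 without sham glia number 1.

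In neurons Odc1 was the 1 list gene of 45 called, where 0.157% of all genes were called higher, with 59.1, 67.9 and 59.6 CPM in kainate and 27.2, 21.6 and 19.3 CPM in sham libraries and a log2 fold change of 1.46 (SE 0.307, FDR = 0.224). Hmga1 had 15.9, 17.8 and 18.0 CPM in kainate and 14.0, 16.9 and 9.80 CPM in sham neurons, a log2 fold change of 0.35 (SE 0.339, FDR = 1). The kainate effect on Hmga1 was lower in neurons than in glia by a log2 difference of -2.28 (FDR = 1) without the block, and was called with it (-2.15, SE 0.357, FDR = 1.76e-04). In neurons 34 of 45 list genes had a fold change above 0, against 48.6% of all genes, with a median of 0.14 against -0.015 over all genes.

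With the replicate number as a block 22 of the 45 were called higher in glia, against 2.93% of all genes, and 7 in neurons, against 3.19%, and 0 lower in either. These counts are a description, since the list was drawn up with earlier results of these data known. The shares over all genes also cover many with low counts: only 29254 of the 40714 had a CPM of at least 1 in 3 libraries. Single libraries were not left out in the fit with the block. In glia Ldha, a glycolytic enzyme, had a log2 fold change of 1.42 (FDR = 3.26e-05) and Eif4a1, an RNA helicase of translation initiation, 1.16 (FDR = 5.47e-04). In neurons Hk2 (1.46, FDR = 1.93e-04), Ldha (0.95, FDR = 5.37e-04) and Slc2a1 (0.73, FDR = 0.0154), which encode hexokinase, lactate dehydrogenase and a glucose transporter, were called beside Odc1.

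The glia counts depended on single libraries. Without sham glia number 1, kainate glia number 1 or kainate glia number 2 neither Odc1 nor Hmga1 was called, with FDRs from 0.260 for Hmga1 to 0.518 for Odc1, and without both low-input libraries the FDR was 0.930 for Odc1 and 0.641 for Hmga1. Odc1 in glia also missed the threshold without sham neurons number 2 or 3 or kainate neurons number 2, with FDRs from 0.264 to 0.352. Odc1 in neurons lost its call without any of the 6 neuron libraries, with FDRs from 0.356 to 1, and without kainate glia number 1 (0.304) or 2 (0.462). At an FDR below 0.05 neither gene was called in either fraction. With no filter on low counts, with RNA input as a covariate and without both low-input libraries Odc1 was not called in neurons (FDR = 0.532, 0.318 and 0.270), and the filter and covariate settings also ended its call in glia (FDR = 0.341 and 0.285). Separate fits ended the glia calls of Odc1 (FDR = 1) and Hmga1 (FDR = 0.711). Odc1 was called in 9 of 21 alternatives in neurons and 10 of 21 in glia, and Hmga1 in glia in 15 of 21.

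The 7 genes known to be repressed by Myc had 0 calls in both fractions without the block, with 2 higher at an unadjusted p under 0.05 in neurons, where 1.46% of all genes were, and 2 higher and 1 lower in glia, against 1.35% and 0.695% of all genes. With the block 2 of the 7 were called higher in neurons, against 5.09% of all genes in either direction, and 3 higher and 1 lower in glia, against 5.79%. Cdkn1a, the cell cycle inhibitor p21, rose in neurons (2.57, FDR = 4.82e-13) and in glia (2.55, FDR = 1.05e-10), as did Thbs1, a matricellular protein (1.45, FDR = 0.00740 and 1.29, FDR = 0.127). Gadd45a, a stress-induced growth arrest gene, rose in glia (1.87, FDR = 3.84e-05), and Ndrg2, an astrocyte-rich gene, fell there (-1.57, FDR = 7.39e-06). The astrocyte markers had a median log2 fold change of -1.01 in glia without the block, and their sum was lower with kainate in numbers 1 and 3, as given above. Their part in the value of Ndrg2 was not tested.

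Of 26 partners, cofactors and turnover factors of Myc none was called without the block, and 1 was higher at an unadjusted p under 0.05 in each fraction, against the same shares of all genes. With the block 2 were called higher and 1 lower in neurons, and 1 higher and 1 lower in glia, against 5.09% and 5.79% of all genes in either direction. Pim1, a kinase that phosphorylates Myc, rose in neurons (1.24, FDR = 0.100) and glia (1.53, FDR = 0.0856). Fbxw7, the ubiquitin ligase subunit that marks Myc for degradation, rose in neurons (0.62, FDR = 0.0353), where Hdac1 fell (-0.57, FDR = 0.232). Bin1, an adaptor that binds Myc, fell in glia (-0.60, FDR = 0.171).

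**Figure D4:**
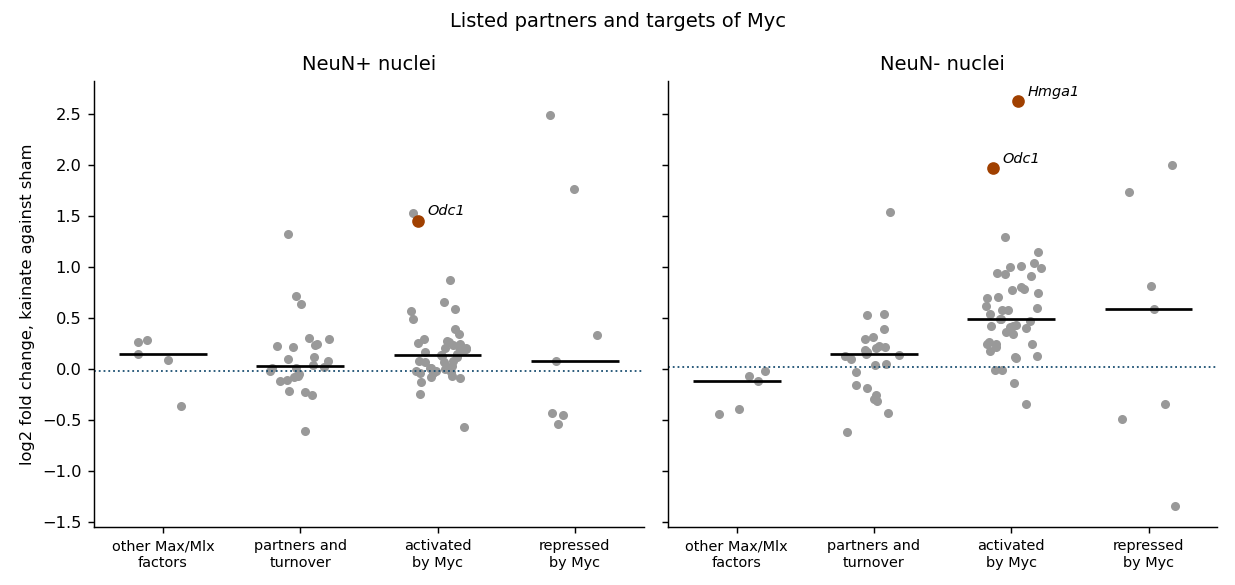
Log2 fold change of kainate against sham for every gene of 4 lists in neurons (NeuN+, left) and glia (NeuN-, right), from the fit without the block. Black lines are list medians, dotted lines the median over all 40714 genes, and named orange points are the genes called, Odc1 in both fractions and Hmga1 in glia.

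The genes whose pattern was most like that of Myc were sought by Pearson correlation of log2 CPM over the 11 libraries among 12157 genes with a mean log2 CPM of at least 3. These were Tnfrsf12a (r = 0.970), the TWEAK receptor, Adamts1 (0.966), a secreted metalloprotease, Socs3 (0.963), a feedback inhibitor of cytokine signalling, Jak3 (0.961), a cytokine receptor kinase, and Relt (0.956), a TNF receptor relative. The points share treatment, fraction and pools, so the values describe the pattern only. Their kainate values follow from this choice and are a description. Socs3 had 3.14 ± 0.0807 CPM in sham and 69.8 ± 26.7 in kainate neurons (n = 3 each), and 10.5 ± 0.298 (n = 2) and 476 ± 151 CPM (n = 3) in sham and kainate glia. Tnfrsf12a had 8.30 ± 6.34 CPM in sham and 121 ± 87.9 in kainate glia, and Adamts1 60.3 ± 31.1 and 441 ± 248. Jak3 had 18.5 ± 3.21 and 9.79 ± 1.53 CPM in kainate and sham neurons and 35.3 ± 3.19 and 15.3 ± 4.35 CPM in kainate and sham glia. By Spearman rank correlation Socs3 was first (0.991), followed by Rel, 4931440P22Rik, Parp3 and Jak3. Among the members Mnt had the highest r with Myc, at 0.583, and Mycl the lowest, at -0.428.

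**Figure D5:**
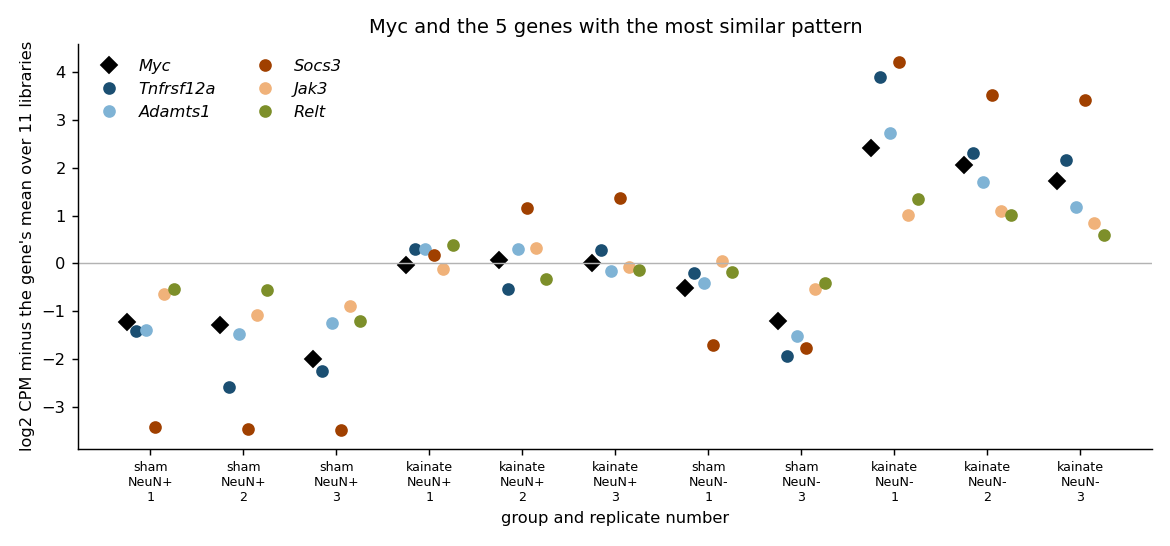
Log2 CPM minus the gene's own mean over the 11 libraries, for Myc (diamonds) and the 5 genes with the highest Pearson correlation with it, by group and replicate number. All 6 genes are highest in kainate glia, and Socs3 has the widest range.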

How the data were processed

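The authors trimmed mRNA-seq reads with Trim Galore 0.4.3, aligned them to mm10 with Rsubread, and deposited raw counts of uniquely mapping reads per gene (featureCounts, GENCODE M16). The strand setting is not given in the sources used here. Exon lengths and positions came from GENCODE M21 on the same build, and promoter sequences from RefSeq. The 11 bisulfite sequencing samples were not analysed here. Groups came from the labels.

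Counts of all 11 libraries were fitted in 1 model with a mean per group (edgeR 4.0.16, TMM, quasi-likelihood F-test, R 4.3.3) after filterByExpr at 10 counts, leaving 40714 genes with a symbol. FDR is Benjamini-Hochberg over all of them, called below 0.25 as in the study. Levels are TMM-normalised CPM, and log2 CPM has a prior count of 2. p-values measure the spread between pooled samples, estimated in part jointly over genes. With the block the SEs in neurons were close between well-expressed genes, such as 0.173 for Trrap, 0.174 for Ep400 and 0.175 for Nop56. FDRs with the block thus rest largely on the shared estimate, not on each gene's own spread. The fit without the block was run on simulated counts for the kainate comparisons within each fraction. The fits with the block were not.

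The sample names do not say what kainate and sham libraries of the same number share. The study used pools of different numbers of mice and different sequencing instruments, which the names do not assign to libraries. Kainate and sham libraries of the same number deviated together from their group means in all 5 pairs (r = 0.161 to 0.787). The glia pairs among these are not independent, since the deviations of only 2 sham libraries mirror each other. Both fractions of a pool came from the same hippocampi (r = 0.240 to 0.668). Blocked fits, with 3 residual degrees of freedom, are therefore printed where they change a call. Alternatives were DESeq2 1.42.0, its size factors, other filters, the newer quasi-likelihood method, RNA input, separate fits and leaving out each library. No 2 libraries held identical counts.

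Members and lists were chosen with earlier results of these data known. Named genes were the members, the other network factors, list genes called in a kainate comparison (up to 4 per list by smallest p, applied to both fits), and the 5 genes most like Myc.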

Additional observations from a re-analysis of the deposited data

Results flagged for a closer look

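Mxi1 stood out because its differences within replicate numbers pointed opposite ways in the fractions, although the fitted log2 fold changes without pairing were -0.27 in neurons and -0.06 in glia. Within replicate numbers the difference of kainate against sham was -0.415, -0.00668 and -0.383 on the log2 CPM scale in neurons, and 0.105 and 0.102 in glia. The difference itself, neurons minus glia, was -0.213 (SE 0.672) on the log2 scale and did not pass the test (FDR = 1, and -0.37 with FDR = 1 under the block), so no difference between the fractions was shown.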

How the results depend on the processing

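Without pairing 0 members were called for kainate in neurons, 1 in glia, 0 for the difference of the kainate effect, 0 between sham fractions and 2 between kainate fractions. With the replicate block these were 3, 4, 1, 5 and 5. The 1 for the difference of effects was Myc, whose value there is a description. The block changed no call of the members other than this and those printed in the report. DESeq2's Wald test called 1 member in neurons and 2 between sham fractions, and a filter of CPM at least 1 in 3 libraries called 1 and 3. Separate fits called 1 in neurons, 0 in glia and 2 between sham fractions. An FDR below 0.05 left 0 in glia and 1 between kainate fractions, and RNA input as a covariate left 1 between kainate fractions. DESeq2's Wald test, the CPM filter, the newer quasi-likelihood method, separate fits and leaving out both low-input libraries each called 3 there, Myc, Mxi1 and Mxd4. Without both low-input libraries 0 were called in glia and 1 between sham fractions. Leaving out single libraries gave 0 to 1 in neurons, 0 to 1 in glia, 0 for the difference of effects, 0 to 3 between sham fractions and 1 to 3 between kainate fractions. No member changed sign as a called value in these alternatives, and 73 of their uncalled values changed sign. Over all genes, calls for kainate in neurons numbered 67 without pairing, 2072 with the block, 360 by DESeq2, 390 in the separate fit, 137 with the CPM filter, 136 by the newer quasi-likelihood method, 41 with input as a covariate and 8 at FDR below 0.05. In glia these were 41, 2357, 254, 0, 67, 73, 22 and 1, and 1 without both low-input libraries. Leaving out single libraries gave 5 to 176 calls in neurons, lowest without sham neurons number 2 or 3 and highest without sham glia number 3, and 1 to 2812 in glia, 1 without sham glia number 1 and 2812 without sham glia number 3. The cause of these differences was not tested. No member had fewer than 142 counts in a library, and the 2 sham glia libraries limit the precision in glia.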

Other observations

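The proliferation markers, 4 genes of dividing cells, gave no call beside the high Myc level. Their summed level ranged from 27.1 to 35.4 CPM in kainate glia and from 23.1 to 40.3 CPM in sham glia, and 1 of 4 had a log2 fold change above 0 in either fraction. None had an unadjusted p under 0.05 in the edgeR test, and 0 were called.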
